A study of Rattus norvegicus with 6 samples.

Results

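The genes that build the contractile apparatus and the cytoskeleton of smooth muscle were read in abdominal aortas with aneurysm from rats, with and without treatment. The 34 genes were taken by name from a list of contractile proteins, their regulators and the proteins that anchor actin filaments. All 34 were among the 24988 genes of the deposited table, and all 34 were among the 16522 genes with enough reads to be tested. The low end of the list was Lpp, with 15 to 68 reads per library.

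Smooth muscle cells shorten when myosin pulls on actin filaments, and phosphorylation of the myosin regulatory light chain by its kinase switches the motor on. A myosin phosphatase switches it off, and dense plaques, dense bodies and intermediate filaments pass the force to the matrix and to neighbouring cells. In the aorta these cells make up the media, their contractile genes are commonly read as signs of the differentiated state, and in people inherited changes of ACTA2, MYH11 and MYLK are known for disease of the thoracic aorta.

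Untreated aneurysms of the abdominal aorta of Sprague-Dawley rats gave 3 libraries, and aneurysms treated with NP, a targeted nanotherapy by the series title, gave the other 3. Both groups carried an aneurysm, and no healthy aorta was among the 6 libraries. The sources used here do not state what NP contains, its dose and timing, how the aneurysm was induced, or the rats' age and sex. Nor do the labels state that each library is a separate rat, so the spread behind each p-value may be technical. Values are given for replicates 1, 2 and 3 of a group in that order.

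Total counts ran from 26100468 to 30939002 per library. Treated replicate 1 stood apart, since it was the highest or the lowest of the 6 libraries in 27.3% and 28.4% of the 16522 tested genes. Untreated replicate 1 and treated replicates 1 and 3 had 25.95 to 40.2 CPM (counts scaled to library size with TMM) of the clock gene Arntl, against 6.18 to 9.83 CPM in the other 3 libraries. Of the 34 genes, 19 lay above the 90th percentile of tested genes by the authors' FPKM, which scales reads by gene length and library size. In whole tissue, fewer cells of a type and less RNA per cell cannot be told apart.

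Most of the smooth muscle genes had somewhat higher mean values in NP-treated aneurysms, but no gene passed the test, and the 3 treated libraries differed widely from each other. That spread was close to that of all tested genes. The highest treated library was a median of 1.81 times the lowest over the members and 1.77 times over all tested genes. Among untreated libraries these medians were 1.44 and 1.46. The fold change was above 1 in 31 of 34 members, against 55.6% of all tested genes. The median log2 fold change was 0.41 over the members and 0.037 over all tested genes. In 5 members, Csrp2, Nexn, Tpm2, Tpm1 and Ppp1r12a, every treated library lay above every untreated library, which is 14.7% of members against 2.47% of all tested genes. No member lay wholly lower, against 3.2% of all tested genes. On the FPKM scale the members with separated groups were Csrp2, Nexn, Tpm2 and Flna, all higher with NP, where 2.17% of all genes lay wholly higher and 3.19% wholly lower.

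In the same comparison the 12 adipocyte genes had a median log2 fold change of -1.60, and 9 of them lay wholly lower in treated libraries. Their part in the smooth muscle values was not tested.

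By edgeR's quasi-likelihood test with Benjamini-Hochberg adjustment over 16522 genes, 0 of 34 members passed an adjusted p of 0.05, as did 0% of all tested genes. Each of the 34 had an adjusted p of 1. At an unadjusted p under 0.05 there were 3 members, Csrp2, Nexn and Tpm2, all with a higher mean in treated libraries (8.82% of members against 0.587% of all tested genes). DESeq2, which called 0.151% of all genes, called 0 members, as did limma-voom with and without library weights. In the other 31 members the 95% interval of the log2 fold change included 0.

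The median log2 fold change of the members changed with the library left out, most for treated replicates 1 and 3. It came to 0.56 when treated replicate 1 was left out, to 0.32 when treated replicate 2 was and to 0.21 when treated replicate 3 was. With an untreated library left out it ranged from 0.39 to 0.48. Without treated replicate 1, 16 members had groups that did not overlap, all higher in treated libraries, against 8.81% of all genes. At an unadjusted p under 0.05 there were then 13 members, all higher, against 1.65% of all genes, and 0 passed after adjustment. Members lying wholly higher numbered 11 when untreated replicate 1 was left out, against 8.98% of all genes, and 9 when treated replicate 2 was, against 6.9%. Wholly lower lay Acta2 and Lpp without treated replicate 3, against 9.18% of all genes, and Hspb6 without treated replicate 2, against 8.74%. The fold change was above 1 in 25 members without treated replicate 3, against 50.3% of all genes.

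**Figure D1:**
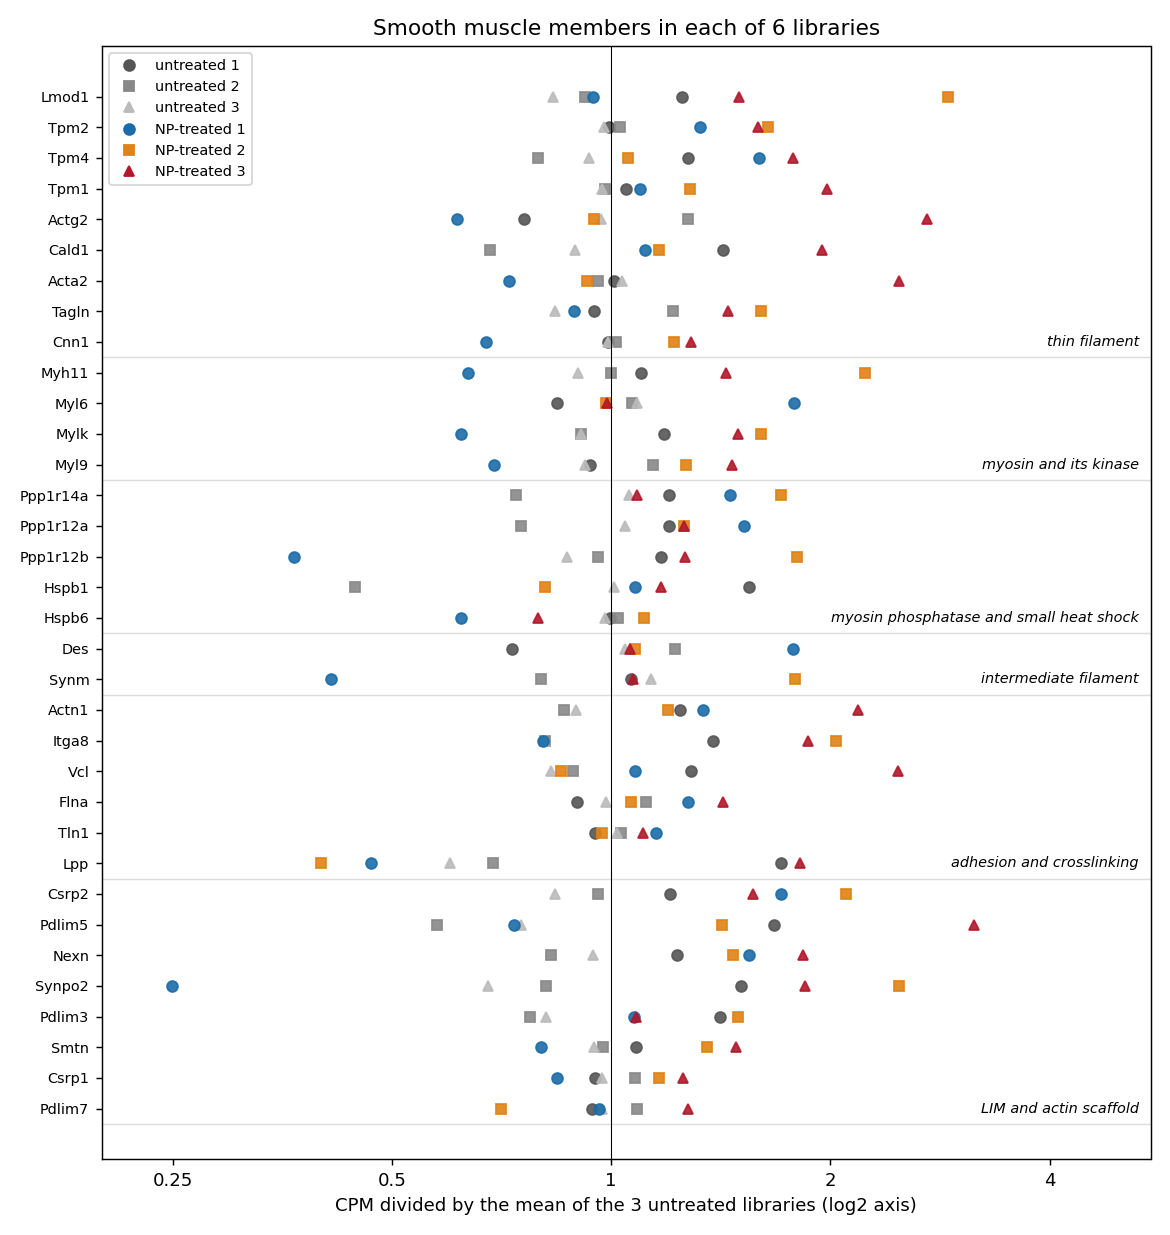
CPM of each of the 34 members in each library, divided by the mean of the 3 untreated libraries (log2 axis), with members grouped by role. Grey points are untreated and coloured points NP-treated libraries. Treated replicate 1 (blue) is the lowest point of the row in 13 members, and treated replicates 2 (orange) and 3 (red) are the highest in 13 and 16, with 28.4%, 13.6% and 22% over all genes.

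**Figure D2:**
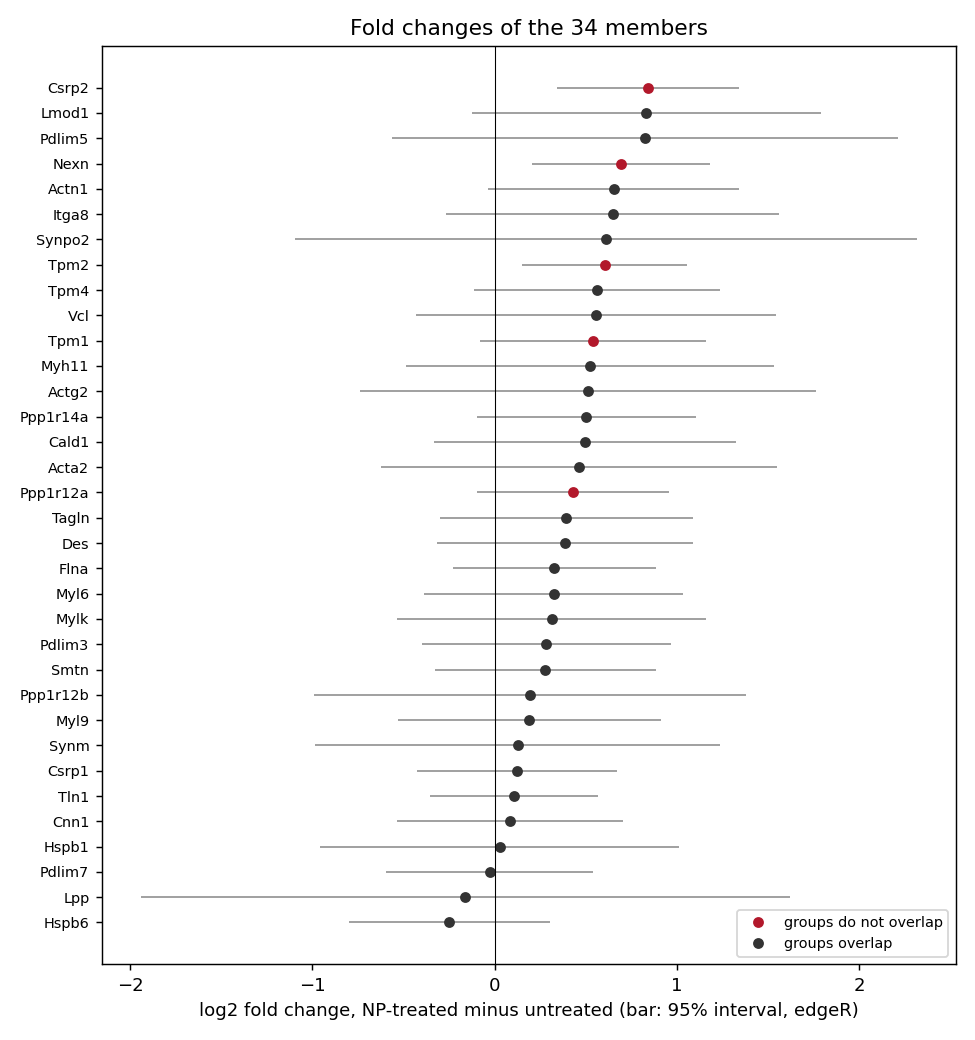
Log2 fold change of each member, NP-treated minus untreated, with its 95% interval from edgeR's quasi-likelihood fit (3 libraries per group). The values run from -0.25 to 0.84, and the red points mark the 5 members whose groups do not overlap.

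The sequences before 4 of these genes are shown because Acta2 is the reference gene of the contractile state and Csrp2, Nexn and Tpm2 had the smallest unadjusted p-values. RefSeq windows of GRCr8 were matched for 28 of the 34 members, not for Tagln, Myh11, Lmod1, Myl9, Lpp and Pdlim3, and each stretch is the 250 bases before the annotated start, 5′ to 3′. Capitals mark a CArG-like box and the letters GGAATG. A CArG box is the site known to bind serum response factor, the factor that drives many contractile genes, and GGAATG is the core of the MCAT element known to bind TEAD factors.
Acta2 (chr1:241172504-241172753, minus strand): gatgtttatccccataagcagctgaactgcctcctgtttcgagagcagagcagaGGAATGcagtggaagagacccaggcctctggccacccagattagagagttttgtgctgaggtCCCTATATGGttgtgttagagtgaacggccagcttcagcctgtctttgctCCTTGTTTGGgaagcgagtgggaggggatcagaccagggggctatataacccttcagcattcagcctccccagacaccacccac
Csrp2 (chr7:48235165-48235414, plus strand): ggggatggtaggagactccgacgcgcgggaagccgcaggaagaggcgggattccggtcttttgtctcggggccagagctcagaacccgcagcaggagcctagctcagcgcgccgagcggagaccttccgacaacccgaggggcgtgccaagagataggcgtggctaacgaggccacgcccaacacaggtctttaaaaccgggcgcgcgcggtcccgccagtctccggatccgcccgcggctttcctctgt
Nexn (chr2:243878153-243878402, minus strand): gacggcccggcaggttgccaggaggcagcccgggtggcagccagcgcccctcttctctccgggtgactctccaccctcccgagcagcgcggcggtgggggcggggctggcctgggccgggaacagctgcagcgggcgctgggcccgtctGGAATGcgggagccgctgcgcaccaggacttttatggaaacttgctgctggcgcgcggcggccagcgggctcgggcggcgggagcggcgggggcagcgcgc
Tpm2 (chr5:62575727-62575976, minus strand): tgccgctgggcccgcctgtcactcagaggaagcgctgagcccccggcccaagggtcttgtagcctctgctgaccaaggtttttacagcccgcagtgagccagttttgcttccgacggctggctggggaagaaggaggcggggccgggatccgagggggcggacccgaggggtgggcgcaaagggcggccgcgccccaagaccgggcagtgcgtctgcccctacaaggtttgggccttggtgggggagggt

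The Acta2 stretch held 2 CArG-like boxes, CCCTATATGG at -134 to -125 and CCTTGTTTGG at -84 to -75, and 1 GGAATG at -196 to -191, counted back from the annotated start. A CArG-like box was searched as CC, 6 bases of which at most 1 is G or C, and GG, on both strands, in windows that also hold 50 bases after the start. It was present in 1 of 28 members, Acta2, and in 9.42% of 33469 windows of the same length. The strict CArG box, whose 6 inner bases are all A or T, was in 0 of 28 members and in 1.64% of windows. Bases outside these windows were not searched, so the counts do not show whether a gene lacks such sites elsewhere. GGAATG, on either strand and overlapping no CArG-like box, was in 8 members (Acta2, Cald1, Flna, Hspb1, Mylk, Nexn, Tpm1 and Vcl), or 28.6%, against 14.2% of windows. A member was counted if any of its windows held the site (Cald1 has 2 windows), while the shares of windows count each window.

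By level per length, the list spanned from Lpp at a mean of 0.456 FPKM over the 6 libraries to Myl6 at 824 FPKM, with a median of 57.9 FPKM. Lpp is known as a gene that smooth muscle makes in quantity, and the deposited table also holds assembled loci with no gene name, so whether these counts hold all Lpp reads is uncertain. The 5 members of highest mean FPKM were Myl6, Tagln (627 FPKM), Acta2 (533 FPKM), Myl9 (362 FPKM) and Tpm4 (350.3 FPKM). Myl6 and Tpm4 are made by many cell types, while Tagln, Acta2 and Myl9 are the thin filament and light chain genes typical of smooth muscle. At the low end after Lpp came Synm (5.12 FPKM), Ppp1r12b (8.47 FPKM) and Synpo2 (8.52 FPKM).

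**Figure D3:**
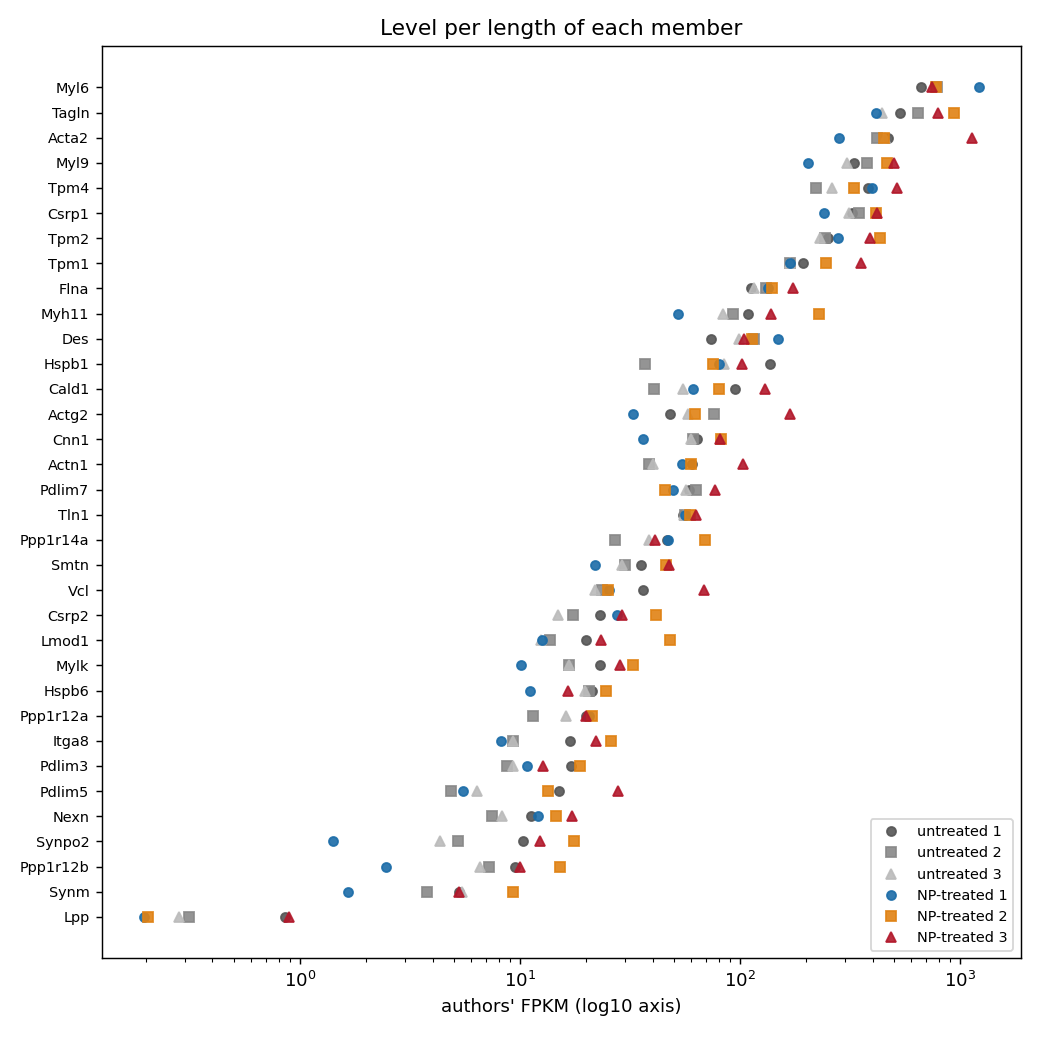
The authors' FPKM (log10 axis) of each member in each of the 6 libraries, ordered by mean level. Levels run from 0.195 FPKM for Lpp in treated replicate 1 to 1213 FPKM for Myl6 in the same library.

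Among the 9 thin filament genes all had a fold above 1, and 2 of them, Tpm2 and Tpm1, had groups that did not overlap. Of all tested genes, 55.6% had a fold above 1 and 2.47% lay wholly higher, the shares for this and the role groups below. Tpm2, a tropomyosin that lies along the actin filament, had 325, 336 and 319.6 CPM without treatment and 432, 537 and 519 CPM with NP. The untreated libraries lay close together and each treated library lay above them. Tpm2 averaged 327 ± 8.66 CPM without treatment and 496 ± 56.1 CPM with NP (mean ± SD, n = 3 each), a log2 fold change of 0.60 (SE 0.19, 95% interval 0.15 to 1.05). Its unadjusted p by edgeR was 0.0159. Tpm1, the other tropomyosin typical of muscle, had 386, 363 and 359 CPM without treatment and 404, 474 and 730.5 CPM with NP. Treated replicate 1 exceeded the highest untreated library only slightly, and treated replicate 3 was far above the rest. Its log2 fold change was 0.54 (SE 0.26, 95% interval -0.083 to 1.16). On the FPKM scale its groups overlapped, with treated replicate 1 at 167.5 FPKM and the untreated libraries at up to 193.5 FPKM.

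Tpm4, a tropomyosin also made by non-muscle cells, had 459, 285 and 335 CPM without treatment and 573, 379 and 638 CPM with NP. Treated replicate 2 was below the highest untreated library, and the log2 fold change was 0.56 (SE 0.29, 95% interval -0.12 to 1.24). Lmod1, leiomodin, which starts new actin filaments in smooth muscle, had 106, 77.9 and 70.5 CPM without treatment and 80.04, 246 and 127 CPM with NP. Treated replicate 2 was above every other library, while treated replicate 1 lay among the untreated ones, and the log2 fold change was 0.83 (SE 0.41, 95% interval -0.12 to 1.79). Without treated replicate 2 the log2 fold change of Lmod1 was 0.29.

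Acta2, smooth muscle alpha-actin, had 773, 736 and 793 CPM without treatment and 555, 710.3 and 1909 CPM with NP. The 3 untreated libraries differed little. Treated replicate 3 was 2.49 times the untreated mean, and treated replicates 1 and 2 lay below every untreated library, at 0.723 and 0.926 times that mean. Acta2 averaged 767 ± 29.3 CPM without treatment and 1058 ± 741 CPM with NP, a log2 fold change of 0.46 (SE 0.46, 95% interval -0.62 to 1.55), which was -0.28 without treated replicate 3. Actg2, the gamma-actin of visceral smooth muscle, also peaked in treated replicate 3, at 81.1, 136 and 103 CPM without treatment and 65.7, 101 and 290.0 CPM with NP. The log2 fold change of Actg2 was 0.51 (SE 0.53), and -0.36 without treated replicate 3. The ratio of Actg2 to Acta2 in FPKM was 0.103, 0.182 and 0.128 untreated and 0.116, 0.140 and 0.149 treated. The actin genes have near-identical coding sequences, so how their reads were divided is uncertain.

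Tagln, transgelin or SM22-alpha, which binds and bundles actin, had 661, 846 and 583 CPM without treatment and 619, 1118 and 1007 CPM with NP. Treated replicates 2 and 3 were above all untreated libraries and treated replicate 1 was among them, for a log2 fold change of 0.39 (SE 0.29, 95% interval -0.30 to 1.09). Cnn1, calponin, which restrains the actin-activated motor, had 113, 116 and 113 CPM without treatment and 76.9, 139 and 147 CPM with NP. The untreated values lay within a few CPM of each other, treated replicates 2 and 3 were above them and treated replicate 1 was below. The log2 fold change of Cnn1 was 0.084 (SE 0.26, 95% interval -0.53 to 0.70), and it turned to -0.030 when treated replicate 2 was left out and to -0.081 when treated replicate 3 was. Cald1, caldesmon, another brake on the motor, had 465, 223 and 292 CPM without treatment and 364, 380.0 and 636 CPM with NP, with a log2 fold change of 0.49 (SE 0.35). Its groups overlapped through untreated replicate 1.

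All 4 genes of myosin and its kinase had a fold above 1, with a median log2 fold change of 0.32, and in none did the groups separate. Myh11, the smooth muscle myosin heavy chain, had 839, 763 and 688 CPM without treatment and 485, 1702 and 1098 CPM with NP. Treated replicate 2 was 2.23 times and treated replicate 3 1.44 times the untreated mean, and treated replicate 1, at 0.636 times, was the lowest library. Myh11 averaged 763 ± 75.7 CPM without treatment and 1095 ± 608 CPM with NP, a log2 fold change of 0.52 (SE 0.43, 95% interval -0.49 to 1.53). Without treated replicate 1 it was 0.87, and without treated replicate 2 it was 0.052. Mylk, the kinase that phosphorylates the regulatory light chain, took the same order of treated libraries, at 217, 167 and 167 CPM without treatment and 114, 295 and 274 CPM with NP, with a log2 fold change of 0.31 (SE 0.36).

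Myl9, the regulatory light chain itself, had 429, 524 and 423 CPM without treatment and 317, 579.9 and 671 CPM with NP. Treated replicate 1 was again the lowest library and treated replicates 2 and 3 the highest, for a log2 fold change of 0.19 (SE 0.31, 95% interval -0.53 to 0.91) that was -0.035 without treated replicate 3. Myl6, the essential light chain shared by smooth muscle and non-muscle myosin, ran the other way, at 617, 782 and 795 CPM without treatment and 1302, 720.5 and 722 CPM with NP. Treated replicate 1 was 1.78 times the untreated mean, and treated replicates 2 and 3 lay among the untreated libraries. Its log2 fold change was 0.32 (SE 0.30, 95% interval -0.39 to 1.03), and it was -0.028 without treated replicate 1. The ratio of Myl6 to Myl9 in FPKM was 5.99 in treated replicate 1, against 1.48 to 2.55 in the other 5 libraries.

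Of the 5 genes of the myosin phosphatase and the small heat shock proteins, 4 had a fold above 1, with a median log2 fold change of 0.19. Ppp1r12a, the targeting subunit MYPT1, had 130.1, 81.5 and 113 CPM without treatment and 165, 136 and 136 CPM with NP. Every treated library was above every untreated one by CPM, although untreated replicate 1 came close to treated replicates 2 and 3. Its log2 fold change was 0.43 (SE 0.22, 95% interval -0.099 to 0.95). On the FPKM scale its groups overlapped, since untreated replicate 1, at 20.02 FPKM, was just above treated replicate 3, at 19.98 FPKM. Ppp1r14a, CPI-17, which inhibits the phosphatase, had 41.0, 25.2 and 36.1 CPM without treatment and 49.7, 58.4 and 36.97 CPM with NP and a log2 fold change of 0.50 (SE 0.26, 95% interval -0.096 to 1.10). Ppp1r12b, the related subunit MYPT2, had 93.02, 76.1 and 69.1 CPM without treatment and 29.1, 143 and 100.4 CPM with NP. Treated replicate 1 was the lowest library for Ppp1r12b and the highest for Ppp1r12a. The log2 fold change of Ppp1r12b, 0.19 (SE 0.50), was -0.29 without treated replicate 2.

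Hspb6, HSP20, a target of cyclic nucleotide kinases in relaxing smooth muscle, had 32.9, 33.8 and 32.5 CPM without treatment and 20.5, 36.7 and 26.3 CPM with NP. The untreated values lay close together, treated replicate 2 was above them and treated replicates 1 and 3 were below. Its log2 fold change, -0.25 (SE 0.23, 95% interval -0.80 to 0.30), was the lowest of the 34. Hspb1, HSP27, which binds actin filaments under stress, had 143, 41.1 and 93.4 CPM without treatment and 99.7, 75.02 and 108 CPM with NP. The untreated libraries were spread more widely than the treated ones and included the highest and the lowest value, and the log2 fold change was 0.028 (SE 0.42). It ranged from -0.33 to 0.49 when 1 library was left out.

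The intermediate filament genes Des and Synm moved in opposite ways in treated replicate 1. Des, desmin, had 189, 316 and 270.1 CPM without treatment and 459, 278 and 274 CPM with NP, with treated replicate 1 the highest library. Synm, synemin, a partner of desmin, had 43.03, 32.4 and 45.9 CPM without treatment and 16.7, 72.4 and 43.4 CPM with NP, with treated replicate 1 the lowest. Desmin is also a gene of skeletal muscle. The summed level of 13 matched skeletal muscle genes was lowest in treated replicate 1, at 30.2 CPM, against 34.9 to 57.05 CPM in the other libraries. Single genes did not all follow the sum, since Tnnt3 had 12.3 CPM in treated replicate 1 and 8.83 CPM in untreated replicate 1. Myh1, Myh2 and Atp2a1 were not matched. The part of skeletal muscle in the Des values was not tested. The log2 fold changes of Des and Synm were 0.38 (SE 0.30) and 0.13 (SE 0.47). That of Synm was -0.43 without treated replicate 2.

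Of the 6 genes of adhesion and actin crosslinking, 5 had a fold above 1, with a median log2 fold change of 0.44 and no separated groups. Actn1, alpha-actinin, which crosslinks actin at dense bodies and plaques, had 242, 167 and 174 CPM without treatment and 259.8, 233 and 425 CPM with NP. Treated replicate 3 was far above the rest, and treated replicate 2 was just below untreated replicate 1. Its log2 fold change was 0.65 (SE 0.29, 95% interval -0.036 to 1.34). Vcl, vinculin, of the dense plaque, had 226, 156 and 145 CPM without treatment and 189, 149.6 and 435 CPM with NP, so treated replicate 3 alone exceeded the untreated range, and its log2 fold change of 0.56 (SE 0.42) was -0.051 without that library. Itga8, the integrin alpha-8 chain, had 117, 68.7 and 68.6 CPM without treatment and 68.2, 172 and 158 CPM with NP. Treated replicates 2 and 3 were above all untreated libraries and treated replicate 1 was just below them, for a log2 fold change of 0.65 (SE 0.39, 95% interval -0.27 to 1.56).

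Flna, filamin A, which links actin filaments into networks, had 1119, 1393 and 1227 CPM without treatment and 1591, 1326 and 1775 CPM with NP. Treated replicates 1 and 3 were above all untreated libraries and treated replicate 2 was among them, with a log2 fold change of 0.33 (SE 0.24, 95% interval -0.23 to 0.88). Tln1, talin, which connects integrins to actin, was the steadiest member, with its highest library 1.22 times its lowest and a log2 fold change of 0.11 (SE 0.20). Lpp, a LIM protein of the dense plaque, had 2.26, 0.907 and 0.793 CPM without treatment and 0.617, 0.526 and 2.39 CPM with NP. At so few reads its log2 fold change of -0.16 (SE 0.76, 95% interval -1.94 to 1.62) had the widest interval of the 34, and it ranged from -1.20 to 0.47 when 1 library was left out.

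Of the 8 LIM and actin scaffold genes, 7 had a fold above 1, with a median log2 fold change of 0.45. Csrp2, a small LIM protein that smooth muscle makes, had 25.6, 20.4 and 17.8 CPM without treatment and 36.4, 44.6 and 33.3 CPM with NP. Each treated library lay above each untreated one, and the lowest treated value was 1.57 times the untreated mean. Csrp2 averaged 21.3 ± 3.96 CPM without treatment and 38.1 ± 5.85 CPM with NP, with a log2 fold change of 0.84 (SE 0.21, 95% interval 0.34 to 1.34) and an unadjusted p of 0.00504 by edgeR, the smallest of the members. Its log2 fold change lay between 0.71 and 0.9965 when any 1 library was left out. Its relative Csrp1, at 668, 759 and 684 CPM without treatment and 594, 819 and 883 CPM with NP, was far more abundant and had a log2 fold change of 0.12 (SE 0.23).

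Nexn, nexilin, an actin-binding protein of adhesions and muscle, had 30.7, 20.6 and 23.6 CPM without treatment and 38.5, 36.7 and 45.7 CPM with NP. All treated libraries were again above all untreated ones. Nexn averaged 24.96 ± 5.17 CPM without treatment and 40.3 ± 4.76 CPM with NP, with a log2 fold change of 0.69 (SE 0.21, 95% interval 0.20 to 1.18) and an unadjusted p of 0.0121 by edgeR. Pdlim5, a PDZ and LIM protein that tethers kinases to actin, had 33.3, 11.5 and 14.97 CPM without treatment and 14.7, 28.3 and 62.8 CPM with NP. Its groups overlapped, treated replicate 3 was the highest library, and the log2 fold change was 0.82 (SE 0.59, 95% interval -0.57 to 2.21). It ranged from 0.10 without treated replicate 3 to 1.41 without untreated replicate 1. Pdlim7 had 117, 135 and 121 CPM without treatment and 119, 87.7 and 158 CPM with NP, with treated replicates 2 and 3 at the low and high ends, and a log2 fold change of -0.028 (SE 0.24). Pdlim3 ranged from 15.7 to 30.4 CPM, with a log2 fold change of 0.28 (SE 0.29).

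Smtn, smoothelin, a protein found in contractile smooth muscle, had 138, 125 and 121 CPM without treatment and 102, 173 and 190.0 CPM with NP. Treated replicate 1 was below and treated replicates 2 and 3 were above all untreated libraries, with a log2 fold change of 0.28 (SE 0.26, 95% interval -0.33 to 0.88). Synpo2, synaptopodin-2 or myopodin, of actin bundles, was also below all untreated libraries in treated replicate 1 and above them in treated replicates 2 and 3, with the widest range of the list, at 50.4, 27.2 and 22.6 CPM without treatment and 8.35, 82.95 and 61.8 CPM with NP. Its highest library was 9.94 times its lowest, and its log2 fold change was 0.61 (SE 0.73).

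The members fell into different orders of the treated libraries. In 15 of 34 members (44.1%) the treated values reached both above and below all untreated values, against 36.3% of all tested genes. In 16 members (47.1%) treated replicates 2 and 3 both lay above every untreated library, against 9.1% of all tested genes, and in 9 of these 16 treated replicate 1 lay below every untreated library. Those 9 were Cnn1, Myh11, Myl9, Mylk, Ppp1r12b, Itga8, Csrp1, Synpo2 and Smtn. Treated replicate 1 was the lowest of the 6 libraries in 13 members (28.4% of all tested genes) and the highest in 4 (27.3%), namely Myl6, Ppp1r12a, Des and Tln1.

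Treated replicates 2 and 3 differed from each other as well. Treated replicate 2 was the highest library in 13 members (13.6% of all tested genes), among them Myh11, Tagln, Lmod1, Mylk, Itga8 and Synpo2. Treated replicate 3 was the highest in 16 (22%), among them Acta2, Actg2, Vcl, Actn1, Tpm1, Cald1 and Pdlim5. The ratio of Acta2 to Myh11 in FPKM was 4.33, 4.53 and 5.42 without treatment and 5.38, 1.96 and 8.17 with NP. The untreated ratios were close, and the treated libraries held the lowest and the highest.

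The other genes of the contractile pathway were read from 3 lists. Of all tested genes, 55.6% had a fold above 1, and 0.587% were higher at an unadjusted p under 0.05 by edgeR. Of 25 other smooth muscle genes, 21 had a fold above 1, with a median log2 fold change of 0.34, and 0 passed by edgeR (2 at an unadjusted p under 0.05). Pln, phospholamban, the regulator of the calcium pump, had 23.5, 17.8 and 20.6 CPM without treatment and 40.2, 25.4 and 54.8 CPM with NP, with every treated library above every untreated one and a log2 fold change of 0.96 (SE 0.29). Casq2, a calsequestrin that stores calcium, had 13.3, 14.03 and 11.1 CPM without treatment and 23.7, 12.0 and 52.3 CPM with NP and a log2 fold change of 1.20 (SE 0.49). Mrvi1, a target of the cyclic GMP kinase, had 86.7, 51.1 and 45.3 CPM without treatment and 68.9, 104 and 92.6 CPM with NP and a log2 fold change of 0.54 (SE 0.29).

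Of 23 tested genes that control contraction, 19 had a fold above 1, with a median log2 fold change of 0.20, and 0 passed by edgeR (0 at an unadjusted p under 0.05). Myocd, myocardin, the coactivator of serum response factor in smooth muscle, had 5.46, 1.01 and 1.75 CPM without treatment and 2.87, 4.88 and 13.1 CPM with NP. Its log2 fold change was 1.34 (SE 0.78). Myocd was highest in treated replicate 3 and lowest in untreated replicate 2. Acta2 was also highest in treated replicate 3 but lowest in treated replicate 1, and Myh11 was highest in treated replicate 2. A link between Myocd and these genes was not tested. Dapk3, a kinase that acts on myosin light chain and its phosphatase, was highest in treated replicate 1, at 223 CPM, against 72.6 to 94.4 CPM in the other 5 libraries. Arhgef1, an activator of RhoA, had 123.7, 321 and 203 CPM without treatment and 128, 162 and 155 CPM with NP. Its log2 fold change was -0.54 (SE 0.34), and all its treated values lay within the untreated range.

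Of 19 tested non-muscle counterparts, which build the cytoskeleton of most cells, 17 had a fold above 1, with a median log2 fold change of 0.27, and 0 passed by edgeR (0 at an unadjusted p under 0.05). Their summed level was 16313, 19995 and 18162 CPM without treatment and 29012, 16316 and 18984 CPM with NP. Treated replicate 1, the lowest library for 13 smooth muscle members, was the highest for these. For Myh10, a non-muscle myosin motor, the log2 fold change was 0.79 (SE 0.45), for Actn4, a non-muscle alpha-actinin, it was 0.40 (SE 0.31) and for the regulatory light chain gene Myl12a 0.42 (SE 0.28).

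**Figure D4:**
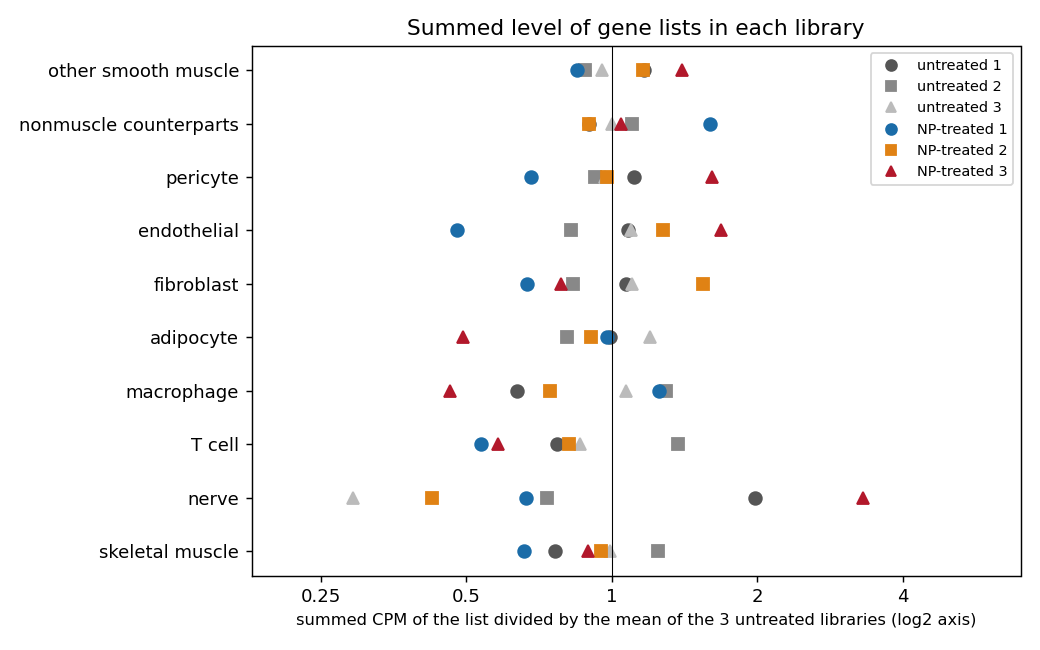
Summed CPM of 10 gene lists in each library, divided by the mean of the 3 untreated libraries (log2 axis). Grey points are untreated and coloured points NP-treated libraries. Treated replicate 1 (blue) is low for endothelial and pericyte genes and high for non-muscle counterparts, and treated replicate 3 (red) is high for nerve, endothelial and pericyte genes and low for macrophage genes. Lyz2 makes up most of the macrophage sum. Fabp4 makes up much of the adipocyte sum, and in 11 of the 12 adipocyte genes treated replicate 1 was the lowest library.

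Markers of other cells of the wall differed between the same libraries. Endothelial genes (9 matched, 4 of 8 tested with a fold above 1) summed to 999.8, 761 and 1016 CPM without treatment and 443, 1182 and 1553 CPM with NP, with Cldn5 listed at 0 in every library. Pericyte genes, some of which smooth muscle also makes, had a fold above 1 in 4 of 7 and summed to 891, 741 and 776 CPM without treatment and 545, 784 and 1295 CPM with NP. For both lists treated replicate 1 was the lowest library and treated replicate 3 the highest. Macrophage genes had a fold above 1 in 4 of 12. They summed to 14966, 30324 and 25164 CPM without treatment and 29425, 17466 and 10839.9 CPM with NP, lowest in treated replicate 3. Lyz2 made up most of that sum, at 11244, 25505 and 20914 CPM without treatment and 23694, 13595 and 7914 CPM with NP. Most genes of the list were also lowest in treated replicate 3, but Adgre1, Fcgr3a, Mrc1 and Cd163 were not. Fibroblast genes had a fold above 1 in 6 of 12 and summed to 4545 to 6005 CPM untreated and 3654 to 8441 CPM treated.

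Nerve genes had a fold above 1 in 6 of 8 and summed to 867 CPM in treated replicate 3, against 76.6 to 518 CPM in the other libraries. Adipocyte genes had a fold below 1 in 11 of 12 and a median log2 fold change of -1.60, with 9 wholly lower in treated libraries and 8 at an unadjusted p under 0.05 (3.2% and 1.34% of all tested genes). Retn, the hormone resistin, had 39.7, 26.7 and 22.5 CPM without treatment and 4.06, 10.2 and 9.96 CPM with NP, and Pck1, an enzyme of glyceride synthesis in fat, had 59.8, 139 and 91.8 CPM without treatment and 1.67, 14.3 and 12.2 CPM with NP. In 11 of the 12 genes treated replicate 1 was the lowest library. The summed level, 2115 to 3149 CPM untreated and 1289 to 2564 CPM treated, did not separate the groups, and Fabp4, chosen after its values were seen, made up much of it, at 1119, 811 and 1612 CPM without treatment and 2229, 1739 and 647 CPM with NP. All 9 T cell genes, all 6 B cell genes and all 9 genes of neutrophils and mast cells lay below a fold of 1, with 0, 0 and 3 of them at an unadjusted p under 0.05. T cell genes summed to 328, 584 and 366 CPM without treatment and 228, 348 and 248 CPM with NP. Cd4 made up most of the T cell sum. B cell genes summed to 10.6, 105 and 10.3 CPM without treatment and 3.48, 12.5 and 11.9 CPM with NP. Untreated replicate 2 was the highest library in every T cell and B cell gene, and in the B cell sum it stood far above the rest. Neutrophil and mast cell genes summed to 72.5 to 105 CPM untreated and at most 38.8 CPM treated. Cardiac muscle genes summed to 3.83 to 12.3 CPM untreated and 2.98 to 13.9 CPM treated, with Actc1 listed at 0 in every library. The part of these cell types in the values of the smooth muscle members was not tested.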

How the data were processed

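RNA of 6 abdominal aortas was sequenced, 3 libraries per group. The deposited table gives, per its column names, whole-number counts that were not normalized and FPKM values computed by the authors. Reads were handled with HISAT2 2.0.4, per the submitters' processing notes, and SOAPnuke is named in the series' design text. No source used here names the counting tool, strand setting, genome build or annotation. Counts of 1 were rarer than counts of 2 in each library (143 against 371 genes in untreated replicate 1), which leaves the meaning of a single count unsettled.

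Genes were kept with filterByExpr at a minimum count of 10. The quasi-likelihood test of edgeR 4.0.16 in R 4.3.3 compared the groups on TMM-scaled counts, with group as the only term and Benjamini-Hochberg adjustment over 16522 genes at a threshold of 0.05. Each standard error is the fold change divided by the root of F. The edgeR step was tested on simulated data. Groups of 3 against 3 allow no exact permutation p below 0.1, so none was used.

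The members and gene lists were chosen with earlier results of these data known, and the motifs after these values were seen. Members given in every library were Acta2, Tagln, Myh11, Cnn1 and Smtn, the 14 of smallest p-value, the 5 of highest FPKM and the 4 of lowest fold change. The others were named for their role, and where their library values are given those were chosen after they were seen. From every other list up to 3 genes of smallest p-value with a mean of at least 2 CPM could be named. Of the listed genes outside the members, 7 had no match in the table and Irag1 was matched as Mrvi1. Alternatives were DESeq2's size factors, no filter, a replicate block, each library left out, DESeq2 1.42.0, limma 3.58.1 (voom, with and without library weights, and on log2 FPKM with a pseudocount of 1 or 0.1), and Arntl as a covariate.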

Additional observations from a re-analysis of the deposited data

How the results depend on the processing

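No member was called by edgeR under any alternative run, nor by DESeq2 or limma. Over all genes, edgeR called 0 in each of its fits (319 at an unadjusted p under 0.05 in the reported one), DESeq2 called 29, and limma called 1 on log2(FPKM + 1) and 3 on log2(FPKM + 0.1). When 1 library at a time was left out, the median log2 fold change of the members ranged from 0.21 to 0.56. The count with a fold above 1 ranged from 25 to 32, against 49.7% to 55.9% of all genes. The count lying wholly higher ranged from 5 to 16, against 4.68% to 8.98% of all genes. The count lying wholly lower ranged from 0 to 2, against 5.21% to 9.98% of all genes. The 2 members wholly lower, Acta2 and Lpp, were seen without treated replicate 3 (9.18% of all genes), and Hspb6 lay wholly lower without treated replicate 2 (8.74% of all genes).

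Of the 34 members, 11 changed direction when 1 library was left out. The log2 fold change ranged from -0.28 to 0.76 for Acta2, from -0.36 to 0.86 for Actg2, from -0.051 to 0.83 for Vcl, from -0.29 to 0.61 for Ppp1r12b, from -0.43 to 0.51 for Synm, from -0.081 to 0.32 for Cnn1, from -0.035 to 0.44 for Myl9, from -0.028 to 0.47 for Myl6, from -0.33 to 0.49 for Hspb1, from -0.26 to 0.16 for Pdlim7 and from -1.20 to 0.47 for Lpp. Of the other alternatives, 4 turned the direction of Ppp1r12b and Synm and of no other member. Ppp1r12b was -0.036 with the replicate block, -0.077 in limma-voom without library weights, -0.033 on log2(FPKM + 1) and -0.087 on log2(FPKM + 0.1), and Synm was -0.092, -0.094, -0.060 and -0.13 in the same fits. The cause was not tested.

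Same-numbered libraries of the groups did not deviate together (correlations of -0.171, 0.0725 and -0.27 over all tested genes). The highest correlation, 0.367, was between untreated replicate 1 and treated replicate 3. With 3 libraries per group, each centred on its group mean, these values cannot exclude pairing. The replicate numbers were not read as pairs in the reported fit, and the replicate block was an alternative. With the replicate block, edgeR called 0 members, 29 members had a fold above 1 (51.3% of all genes) and their median log2 fold change was 0.34. With Arntl as a covariate the median was 0.40 and 31 members had a fold above 1 (54.8% of all genes). The biological coefficient of variation in the reported fit was 40.7%, and Lpp, with the fewest reads, had the widest interval.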
